A study of Mus musculus with 6 samples.

Results

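Axon guidance genes encode the ligands and receptors that steer growing nerve fibres, and many of them also act in epithelia, blood vessels and tumours. The genes described here were chosen by symbol alone: the semaphorins of classes 3 to 7 and their plexin receptors, the ephrins and Eph receptors, the Slits and Robos, and the netrins and Unc5 receptors. The rule found 59 of the 18182 genes in the files, of which 33 encode ligands and 26 encode receptors. After a filter on low counts 47 of the 59 could be tested, 30 ligands and 17 receptors. Whether a member passed depended on its level in the libraries, so the 47 are not a sample of the 59.

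The libraries came from Lewis lung carcinoma cells that carry red fluorescent protein (LLC-RFP), a mouse lung tumour line, grown under the skin of wild type C57BL/6 mice. In one group LLC cells were injected alone (LLC alone, 3 libraries), and in the other together with bone marrow-derived mesenchymal stem cells (LLC with BMSCs, 3 libraries). The fluorescent cells were sorted from the primary tumours, and their RNA was sequenced to find how the co-injected BMSCs alter the tumour cells. Both groups share the line, the host strain, the label and the sort. The study's methods name female mice of 6 weeks for its allografts, described there for LLC cells carrying luciferase, and do not repeat the age for the sorted tumours. Which animal each library came from is not given in the sources used here, so p-values measure the spread between these libraries, which may be technical.

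The ligands and receptors of these families meet at the cell surface. Secreted class 3 semaphorins bind plexins of type A together with neuropilins, whereas most membrane-bound semaphorins of classes 4 to 7 bind plexins directly. Plexins then act on small GTPases and collapse the actin skeleton. Ephrins are anchored in the membrane themselves, so that ephrin and Eph receptor signal only between touching cells and in both directions. Slits repel cells through Robo receptors, and netrins attract them through Dcc and neogenin or repel them through Unc5 receptors.

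The deposited values were an estimated count of fragments for each gene, between 33476347 and 46189113 per library in total, and an FPKM value, which divides by transcript length and library total. Levels of different genes are compared below only in FPKM, and changes were tested on the counts with edgeR's quasi-likelihood test, with p-values adjusted over all 13353 genes tested and a threshold of 0.05. Log2 fold changes are LLC with BMSCs over LLC alone, with their standard error (SE). With 3 libraries a group, an exact permutation test of a single gene gives no two-sided p below 0.1. In sorted bulk RNA, fewer cells of a kind and less RNA per cell cannot be told apart.

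Most of the sorted cells' guidance transcripts came from a few genes. Of the 59 members, 34 were under 1 FPKM in all 6 libraries. The most abundant receptors in LLC alone were Epha2, Plxnb2 and Unc5b, and the most abundant ligands were Sema3f, Efna1 and Sema3e. The Robo receptors were almost absent: Robo1, Robo2 and Robo4 had between 0 and 2 estimated counts in every library. Epha6, Epha7, Epha8, Epha10, Ephb6, Slit3, Unc5c, Ntn3 and Ntn5 also failed the filter, with at most 12 counts in any library.

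**Figure D1:**
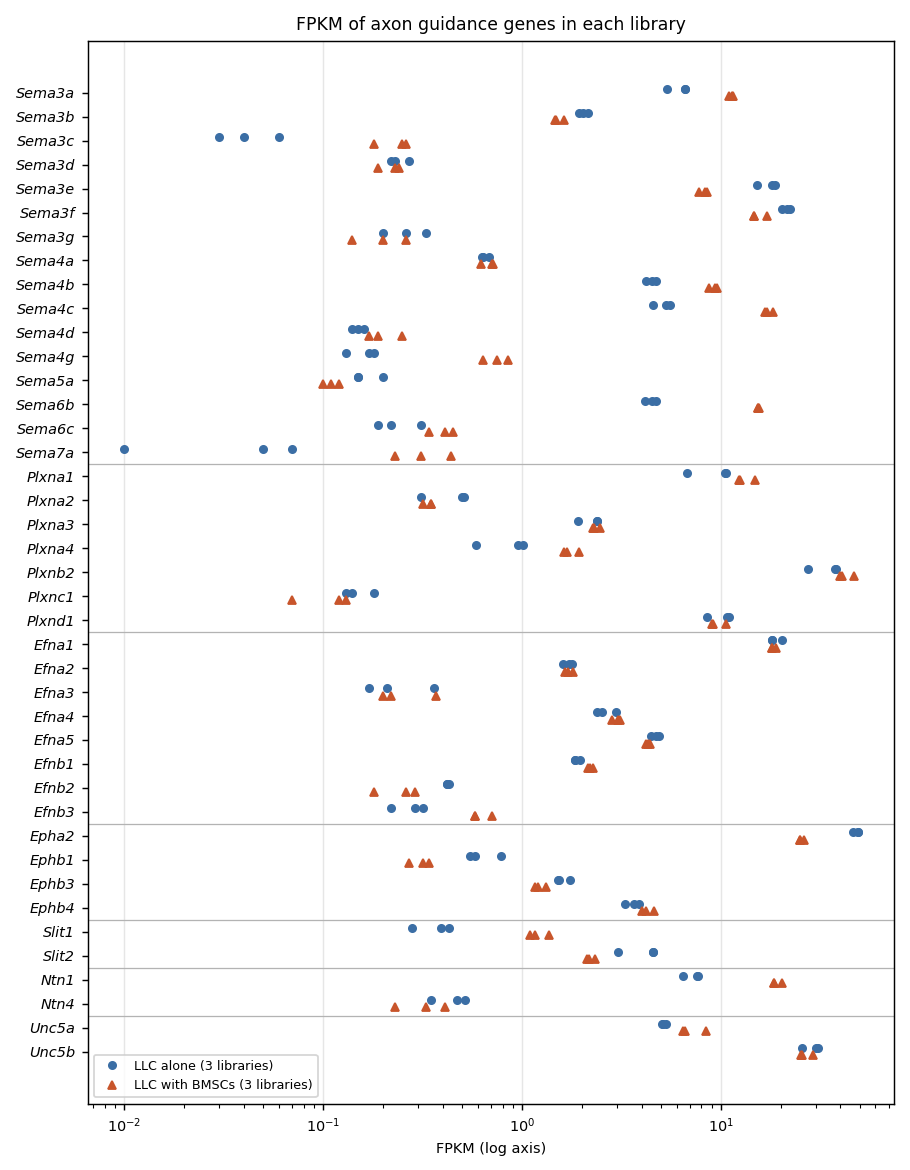
FPKM of the 41 tested members whose mean over the 6 libraries was at least 0.1 FPKM, on a log axis, with LLC alone as circles and LLC with BMSCs as triangles; lines part the families in the order semaphorins, plexins, ephrins, Eph receptors, Slits, netrins and Unc5. Epha2 in LLC alone lies highest, near 49 FPKM, and the circles and triangles of Sema4c, Sema6b and Ntn1 are far apart while those of Efna1 and Unc5b mix.

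Of the 47 tested members, 14 were higher and 12 were lower in LLC with BMSCs, and 21 did not pass the threshold. These libraries differed widely: 62.9% of all tested genes passed, 31.5% higher and 31.3% lower, so the share of members that passed is close to the background. Changes of at least 2-fold were found in 10 members that rose and 5 that fell, beside 8.65% and 7.17% of all tested genes. Every library of one group lay above every library of the other, in normalized counts, for 19 members that were higher with BMSCs and 14 that were lower, while 14 overlapped; over all tested genes the groups did not overlap for 71.3% (36.7% higher and 34.6% lower). The median log2 fold change was 0.06 over the tested members and 0.01 over all tested genes. Ligands and receptors gave different counts. Of the 30 tested ligands 11 were higher, 7 were lower and 12 did not pass, with a median log2 fold change of 0.11. Of the 17 tested receptors 3 were higher, 5 were lower and 9 did not pass, with a median of -0.09. The difference between ligands and receptors was not tested.

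**Figure D2:**
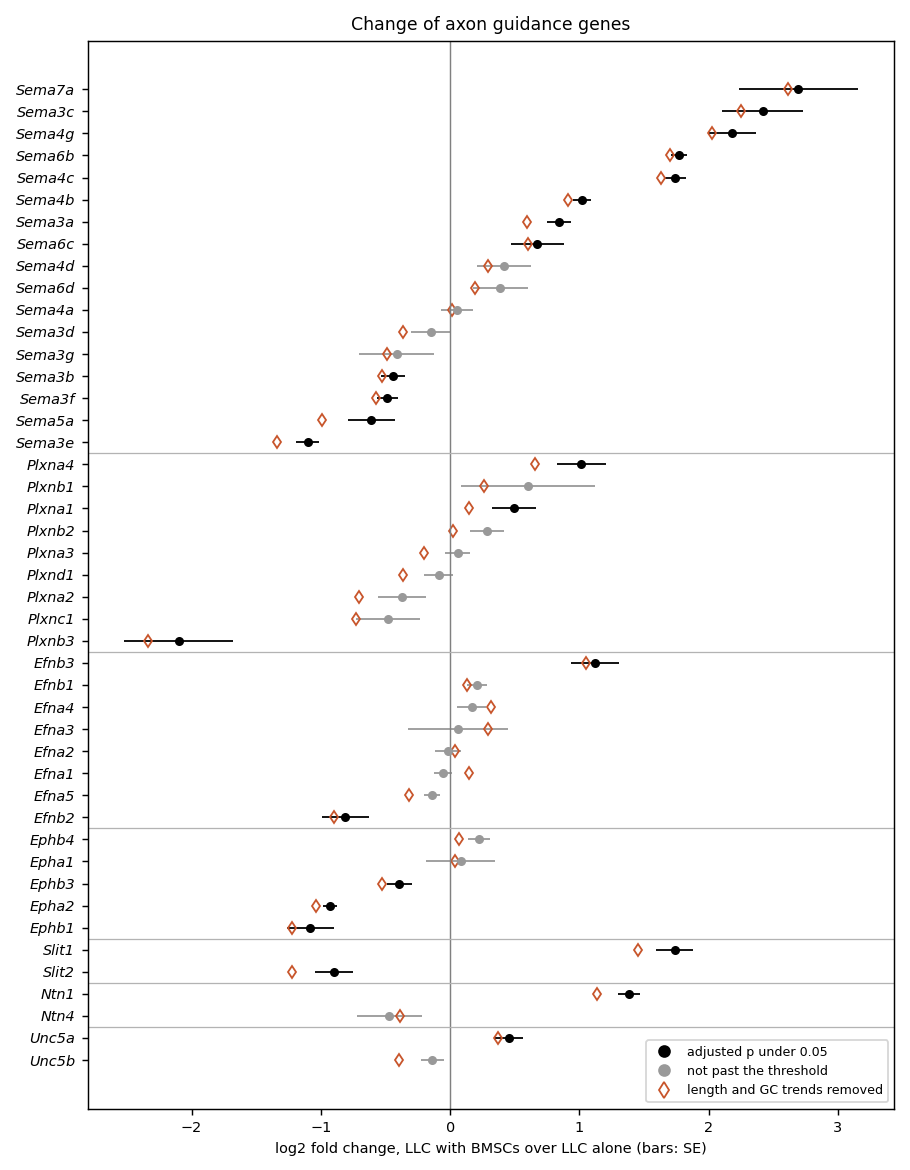
Log2 fold change of each tested member (LLC with BMSCs over LLC alone), with bars for the SE, in black where the adjusted p of edgeR was under 0.05 and in grey otherwise; open diamonds give the value after trends over gene length and GC content were removed, and the 2 members at the counting floor, Sema4f and Unc5d, are left out. Semaphorins lie at the upper end of the scale and the plexin Plxnb3 at the lower end, and most plexin diamonds lie to the left of their points.

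The semaphorins held the largest rises. Of 18 tested, 8 were higher, 5 were lower and 5 did not pass, beside 31.5% higher and 31.3% lower over all tested genes. In class 4 and in classes 5 to 7, which are tethered to the membrane, 3 of 6 and 3 of 5 members were higher and 1 was lower in each, whereas of the 7 secreted class 3 members 2 were higher and 3 lower.

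Sema4c, a membrane-bound ligand of Plxnb2, had 5.54, 5.33 and 4.56 FPKM in LLC alone and 18.33, 16.78 and 17.09 FPKM in LLC with BMSCs. The groups were far apart, and the lowest library with BMSCs lay above the highest of LLC alone. Its log2 fold change was 1.74 (SE 0.08, edgeR adjusted p = 2.58e-06). Exons of Sema4c overlap the gene D430040D24Rik on the opposite strand, and those of Plxna1, Plxna4 and Ephb1 overlap opposite-strand genes too; whether the counting used the strand is not given, so reads of such pairs cannot be told apart.

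Sema6b, a transmembrane ligand of type A plexins, had 4.53, 4.71 and 4.16 FPKM in LLC alone and 15.57, 15.35 and 15.33 FPKM with BMSCs. The libraries of each group lay close together and the groups did not overlap. The log2 fold change was 1.77 (SE 0.06, edgeR adjusted p = 5.82e-07).

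Sema4b, also membrane-bound, had 4.75, 4.54 and 4.23 FPKM in LLC alone and 9.59, 8.76 and 9.39 FPKM with BMSCs. Every library with BMSCs was above every library of LLC alone, and the log2 fold change was 1.02 (SE 0.07, edgeR adjusted p = 1.3e-05). Rises from a low level were seen for Sema4g, from 0.13 to 0.18 FPKM in LLC alone to 0.64 to 0.85 FPKM with BMSCs, for the GPI-anchored Sema7a, from 0.01 to 0.07 to between 0.23 and 0.44 FPKM, and for the secreted Sema3c, from 0.03 to 0.06 to between 0.18 and 0.26 FPKM. Each of these 3 passed the threshold with a log2 fold change above 2 and no overlap of the groups. At such levels they add little to the semaphorin transcripts of these cells.

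The sequence upstream of the transcription start site was read for members that rose together. RefSeq windows of 300 bases (250 before and 50 after a start site, GRCm38.p6) existed for 51 of the 59 members. The hypoxia-response core ACGTG was searched on both strands, because the study exposed cultured BMSCs to hypoxia. No such treatment is described for the cells sorted here. The core lay in at least 1 window of 21.8% of all genes with windows and of 11 of the 51 members. Of the 6 members with windows that rose at least 2-fold, Sema3c, Sema4b, Sema4g and Sema6b held it and Sema4c and Sema7a did not. Efnb3, Ntn1, Plxna4 and Slit1 also rose at least 2-fold but had no window. The share of these members was not tested against that of all genes. Among the 4 members with windows that fell at least 2-fold, Sema3e held it, after its start site. The STAT-type motif TTCNNNGAA, whose end bases can be shared with the core but were not in Sema3e, lay in a window of 9.55% of all genes and of 2 of the 51 members, Sema3e being 1 of them, and in none of the 6 that rose. The 250 bases before the start site are shown for Sema4b (chr7:80186620-80186869, plus strand) and Sema6b (chr17:56133853-56134102, minus strand), the pair of these members with the highest FPKM, each 5′ to 3′ on the gene's strand with the core in capitals.
Sema4b: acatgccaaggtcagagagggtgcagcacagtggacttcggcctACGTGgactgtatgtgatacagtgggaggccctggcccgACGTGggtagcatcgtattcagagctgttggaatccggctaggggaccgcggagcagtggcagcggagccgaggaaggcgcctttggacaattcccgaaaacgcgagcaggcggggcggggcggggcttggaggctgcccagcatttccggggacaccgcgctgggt
Sema6b: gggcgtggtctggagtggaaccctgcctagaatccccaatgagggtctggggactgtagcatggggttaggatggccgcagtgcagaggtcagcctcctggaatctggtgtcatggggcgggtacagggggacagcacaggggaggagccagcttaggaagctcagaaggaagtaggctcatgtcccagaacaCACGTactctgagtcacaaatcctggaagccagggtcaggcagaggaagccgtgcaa
In Sema4b the core began 206 and 167 bases before the start site. A second window of Sema4b, at a start site further along the gene and not shown, held it 102 and 101 bases before that site. These matches lay on opposite strands and overlapped in the stretch CACGTG. In Sema6b the reverse complement CACGT of the core began 57 bases before, and a second window of Sema6b held no match. These are matches of letters, and nothing in these libraries measured binding there.

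The abundant class 3 semaphorins moved apart from each other. Sema3e, a secreted ligand that binds Plxnd1 without a neuropilin, had 18.83, 18.17 and 15.19 FPKM in LLC alone and 8.56, 8.32 and 7.76 FPKM with BMSCs. The groups did not overlap, and the log2 fold change was -1.10 (SE 0.09, edgeR adjusted p = 3.57e-05). Sema3f, a ligand of Nrp2 and the semaphorin of highest FPKM in LLC alone, had 22.38, 21.56 and 20.46 FPKM there and 17.17, 14.67 and 14.74 FPKM with BMSCs. It too was lower in every library with BMSCs, with a log2 fold change of -0.49 (SE 0.08, edgeR adjusted p = 0.0014). Sema3a, a ligand of Nrp1 that repels axons, went the other way: it had 6.59, 6.64 and 5.39 FPKM in LLC alone and 11.06, 11.37 and 11.57 FPKM with BMSCs. Its groups did not overlap either, and the log2 fold change was 0.84 (SE 0.09, edgeR adjusted p = 0.000146). Sema3b was also lower, and Sema3d and Sema3g did not pass.

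Sema4f was close to the limit of detection in LLC with BMSCs, at 0.07, 0.10 and 0.08 FPKM in LLC alone and 0.02 FPKM in each library with BMSCs. Its estimated counts there were 3 in each library, which is the floor itself. Its mean in LLC alone was 4.84-fold above that floor, and the fitted change was 4.61-fold lower. Both values rest on few counts, so neither is a lower bound. Sema5a and Sema6c, both transmembrane and at or under 0.45 FPKM, came to -0.61 (SE 0.18, edgeR adjusted p = 0.0187) and 0.67 (SE 0.20, edgeR adjusted p = 0.0212) on the log2 scale. Without replicate 1 or without replicate 3 of LLC with BMSCs neither passed, with edgeR adjusted p of 0.05001 and 0.0693 for Sema5a and 0.0747 and 0.0585 for Sema6c. Sema5a also missed it without LLC alone replicate 1 (edgeR adjusted p = 0.0702), and Sema6c without LLC alone replicate 2 (edgeR adjusted p = 0.0639).

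The members of class 3 together had 47.7 ± 3.60 FPKM (SD, n = 3) in LLC alone and 37.2 ± 1.52 FPKM with BMSCs. Class 4 rose from 10.7 ± 0.741 to 28.3 ± 1.24 FPKM, of which Sema4c made up 48.1% in LLC alone and 61.5% with BMSCs. Classes 5 to 7 had 5.18, 5.14 and 4.67 FPKM in LLC alone and 16.66, 16.23 and 16.17 FPKM with BMSCs, of which Sema6b made up 89.4% and 94.3%. The groups did not overlap in any of these sums.

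**Figure D3:**
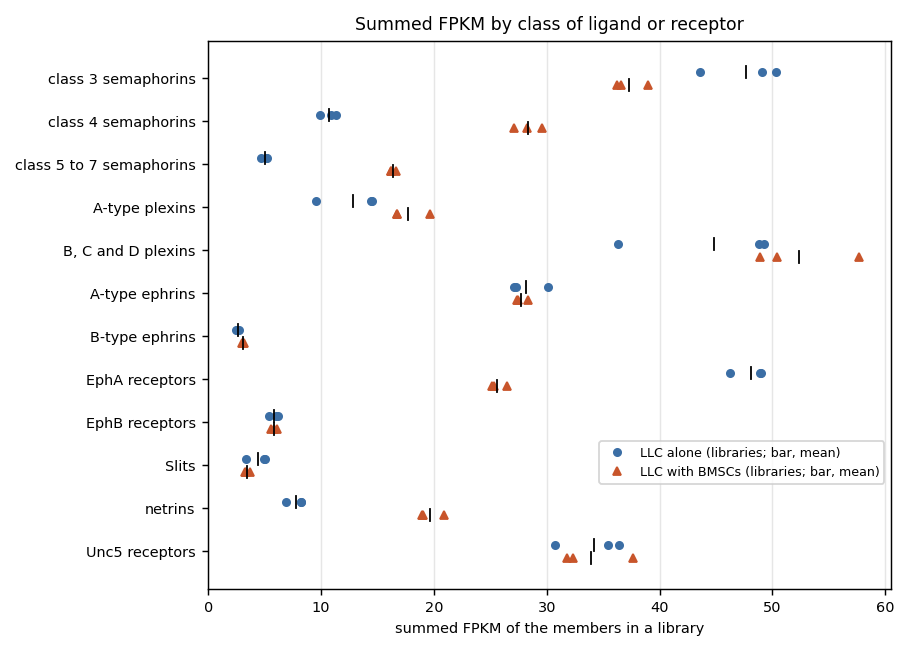
Summed FPKM of the members of each class in each library, with LLC alone as circles, LLC with BMSCs as triangles and black bars for the means of 3 libraries. Class 3 semaphorins and EphA receptors are lower with BMSCs, classes 4 and 5 to 7 and the netrins are higher, and the A-type ephrins and EphB receptors overlap.

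For several semaphorins the files also divide the FPKM among transcripts, as the authors' quantification assigned the reads. Sema3a changed in makeup as well as in level. The RefSeq transcript NM_009152 held between 3.71% and 12.6% of its FPKM in LLC alone and between 46.5% and 54.0% with BMSCs, with means of 0.537 and 5.60 FPKM. The share of NM_001243073 was 63.6% to 77.9% in LLC alone and 29.4% to 36.6% with BMSCs, while its FPKM with BMSCs averaged 3.87. The shares of both transcripts were apart between the groups in all 6 libraries.

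Sema4c was spread over 6 transcripts, and NM_001126047 held 9.65% to 18.1% in LLC alone and 28.7% to 33.6% with BMSCs. Sema6b showed no such shift, since NM_013662 held at least 98.3% of its FPKM in every library. The makeup was not tested, because these splits are estimates from shared reads.

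**Figure D4:**
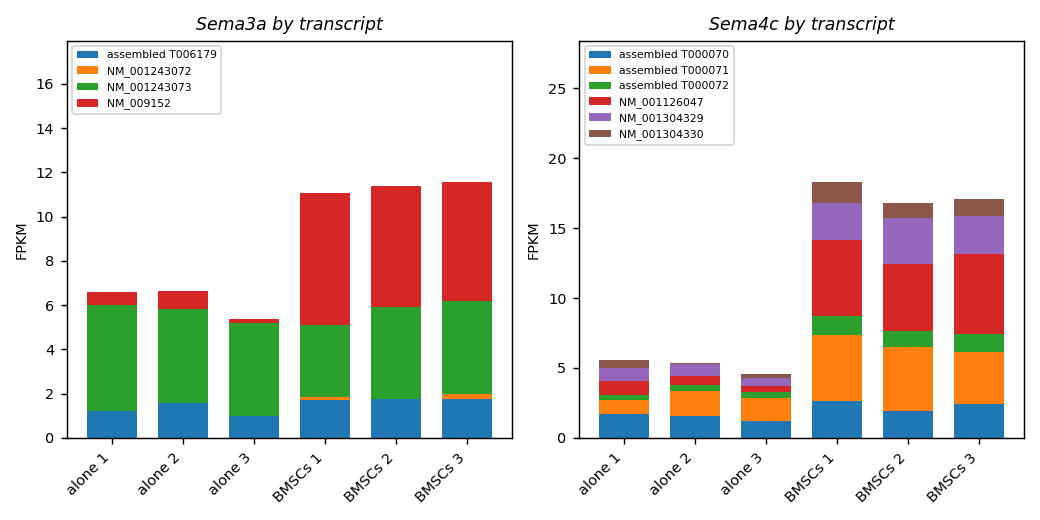
FPKM of each transcript of Sema3a and Sema4c in the 6 libraries, stacked to the gene's FPKM; transcripts marked assembled have no RefSeq name in the files. In Sema3a the segment of NM_009152 is thin in the 3 libraries of LLC alone and the thickest in the 3 with BMSCs, and in Sema4c all segments are taller with BMSCs.

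Of the 9 plexins tested, which receive the semaphorins, 2 were higher, 1 was lower and 6 did not pass. Over all tested genes 31.5% were higher and 31.3% lower. Plxnb2, the receptor of Sema4c and the most abundant plexin, had 37.55, 38.14 and 27.57 FPKM in LLC alone and 46.85, 41.00 and 39.70 FPKM with BMSCs. The groups did not overlap in normalized counts, but replicate 3 of LLC alone lay well below the other two, and the log2 fold change of 0.29 (SE 0.13) did not pass (edgeR adjusted p = 0.087). Plxna1, a partner of neuropilins, had 10.61, 10.50 and 6.77 FPKM in LLC alone and 14.86, 12.52 and 12.38 FPKM with BMSCs. It passed with a log2 fold change of 0.49 (SE 0.17, edgeR adjusted p = 0.0341), a call that was lost without any one of the libraries with BMSCs, at 0.40 without replicate 1 (edgeR adjusted p = 0.123), 0.54 without replicate 2 (edgeR adjusted p = 0.0565) and 0.54 without replicate 3 (edgeR adjusted p = 0.0566).

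Plxna4, another neuropilin partner, had 0.96, 1.01 and 0.59 FPKM in LLC alone and 1.94, 1.62 and 1.68 FPKM with BMSCs. The groups were apart, with a log2 fold change of 1.02 (SE 0.19, edgeR adjusted p = 0.0021). Plxnd1, the receptor of Sema3e, had 11.06, 10.81 and 8.51 FPKM in LLC alone and 10.66, 9.20 and 9.08 FPKM with BMSCs. Its groups overlapped, and the log2 fold change of -0.09 (SE 0.11, edgeR adjusted p = 0.511) did not pass. Plxnb3 fell, at no more than 0.08 FPKM in any library. By FPKM Plxnb2 was first in both groups, followed by Plxnd1 and Plxna1. Within every library of LLC alone Plxnd1 lay above Plxna1, although their ranges overlapped. Within every library with BMSCs Plxna1 lay above Plxnd1.

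Plexin transcripts are long, and the deviations of members in single libraries are given here beside gene length. The part of length in these deviations was not tested. The tested members had a median length of 4337 bases, beside 2886 bases over all tested genes. In replicate 3 of LLC alone all 9 plexins lay below the mean of the other libraries of its group, by a median of -0.46 in log2 CPM, while the median over all genes was 0.00. Of the 47 tested members 34 lay below in that library. In replicate 1 of LLC with BMSCs all 9 plexins lay above the mean of the other libraries of its group, by a median of 0.25. The ephrins, whose transcripts are shorter, had a median of 0.07 in that replicate 3 of LLC alone. Of these 8 ephrins 2 lay below there, and Efna3, of 1225 bases, was at -0.57.

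**Figure D5:**
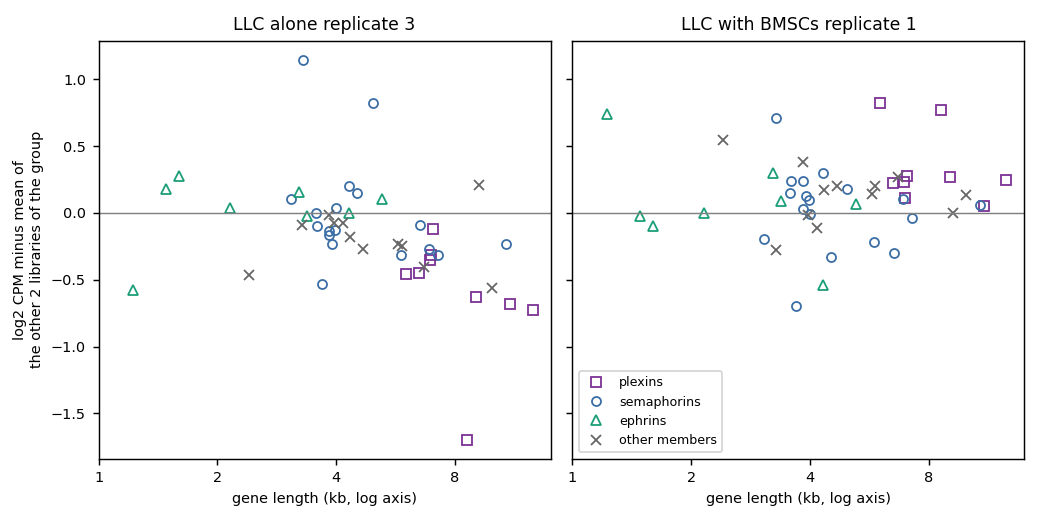
Log2 CPM of each tested member in 1 library minus its mean in the other 2 libraries of the group, against gene length in kilobases on a log axis, for replicate 3 of LLC alone (left) and replicate 1 of LLC with BMSCs (right); squares are plexins, circles semaphorins, triangles ephrins and crosses the other members. All 9 plexins lie below 0 on the left and above 0 on the right.

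With trends over length and GC content removed from each library, the members gave 16 higher and 18 lower, and the receptors 3 higher and 10 lower in place of 3 and 5. Over all tested genes the shares at this setting were 36.8% higher and 34.9% lower. The counts over all 47 tested members are again near these shares. Those of the 17 tested receptors lean further to lower, and this was not tested. Plxna2, Plxna3, Plxnc1, Plxnd1 and Unc5b were then called lower. Plxnd1 came to -0.37 on the log2 scale (edgeR adjusted p = 2.75e-05), and Plxnb2 to 0.02 (edgeR adjusted p = 0.698). The rises of Plxna1 and Plxna4 shrank to 0.15 (edgeR adjusted p = 0.0255) and 0.66 (edgeR adjusted p = 1.2e-05), the latter no longer 2-fold. Without replicate 3 of LLC alone and with no such correction, 8 receptors were lower. For Sema4c, Sema6b, Sema4b, Sema3a, Sema3e, Sema3f, Slit1, Slit2, Ntn1 and Epha2 the direction and the call were as before in both alternatives.

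The ephrins and their receptors moved differently. None of the 5 tested A-type ephrins, which are held in the membrane by a lipid anchor, passed the threshold, although 3 of them did once length and GC trends were removed. Efna1, the most abundant, had 18.07, 18.18 and 20.40 FPKM in LLC alone and 18.13, 19.01 and 18.13 FPKM with BMSCs. The groups overlapped and the log2 fold change was -0.06 (SE 0.07, edgeR adjusted p = 0.487), and it came to 0.15 with length and GC trends removed (edgeR adjusted p = 0.0066). Efna5 had 4.47, 4.72 and 4.88 FPKM in LLC alone and 4.40, 4.19 and 4.30 FPKM with BMSCs, with a log2 fold change of -0.14 (SE 0.06, edgeR adjusted p = 0.0733). With length and GC trends removed it was called lower, at -0.32 (edgeR adjusted p = 0.0101), and Efna4 was called higher, at 0.32 in place of 0.17 (edgeR adjusted p = 0.012). Efna4 also passed without LLC alone replicate 3, at 0.27 (edgeR adjusted p = 0.0473).

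Of the transmembrane B-type ephrins, Efnb3 rose and Efnb2 fell, both from low levels. Efnb3 had 0.32, 0.22 and 0.29 FPKM in LLC alone and 0.71, 0.58 and 0.58 FPKM with BMSCs. Efnb2, known for its place in arterial vessels, had 0.42, 0.43 and 0.42 FPKM in LLC alone and 0.18, 0.29 and 0.26 FPKM with BMSCs. Both were apart between the groups, with log2 fold changes of 1.12 (SE 0.19, edgeR adjusted p = 0.00121) and -0.81 (SE 0.18, edgeR adjusted p = 0.0054). Efnb1 at about 2 FPKM came to 0.21 on the log2 scale (SE 0.08, edgeR adjusted p = 0.0526).

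On the receptor side Epha2, a receptor of A-type ephrins that is abundant in many carcinomas, stood out. It had 48.91, 48.82 and 46.15 FPKM in LLC alone and 25.19, 26.37 and 24.96 FPKM with BMSCs. The libraries of each group were close together and the groups were far apart, with a log2 fold change of -0.93 (SE 0.06, edgeR adjusted p = 7.56e-06). Epha2 made up 88.9% of the summed Eph receptor FPKM in LLC alone and 81.0% with BMSCs, and the sum went from 53.9 ± 1.99 to 31.5 ± 0.812 FPKM (SD, n = 3). Its ligand Efna1 thus overlapped between the groups while the receptor was 1.91-fold lower.

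Ephb1 and Ephb3, receptors of B-type ephrins, also fell. Ephb1 had 0.79, 0.58 and 0.55 FPKM in LLC alone and 0.34, 0.27 and 0.32 FPKM with BMSCs, a log2 fold change of -1.08 (SE 0.18, edgeR adjusted p = 0.00133). Ephb3 had 1.52, 1.74 and 1.53 FPKM in LLC alone and 1.16, 1.32 and 1.21 FPKM with BMSCs, a log2 fold change of -0.39 (SE 0.10, edgeR adjusted p = 0.00905). In both every library with BMSCs lay below every library of LLC alone. Ephb4, the receptor of Efnb2, had 3.67, 3.90 and 3.31 FPKM in LLC alone and 4.61, 4.23 and 4.04 FPKM with BMSCs, with a log2 fold change of 0.22 (SE 0.09) that just missed the threshold (edgeR adjusted p = 0.0508). Of the 5 Eph receptors tested, 3 were lower and none passed the threshold as higher, beside 31.3% lower and 31.5% higher over all tested genes. Ephb4 was called higher in 6 of 17 alternatives.

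The Slits went in opposite directions. Slit2, the more abundant, had 4.55, 4.58 and 3.06 FPKM in LLC alone and 2.34, 2.17 and 2.13 FPKM with BMSCs. The groups did not overlap, and the log2 fold change was -0.90 (SE 0.15, edgeR adjusted p = 0.00119). Slit1 had 0.39, 0.43 and 0.28 FPKM in LLC alone and 1.37, 1.17 and 1.10 FPKM with BMSCs, with a log2 fold change of 1.74 (SE 0.15, edgeR adjusted p = 3.89e-05). Its groups did not overlap either. Together the Slits summed to 4.44 ± 0.951 FPKM in LLC alone and 3.43 ± 0.248 FPKM with BMSCs. Their Robo receptors summed to no more than 0.02 FPKM in any library, so the sorted cells carried Slit transcripts with hardly any of the listed receptors. Robo4, for example, had 0, 0, 1, 1, 1 and 1 estimated counts in the 6 libraries. All Robo values lay under the floor of 3 counts, and no fold change or order is given.

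Ntn1, a secreted netrin, rose from a level already well above that of most members. It had 7.70, 7.60 and 6.48 FPKM in LLC alone and 20.42, 18.61 and 18.65 FPKM with BMSCs. The groups were far apart, with a log2 fold change of 1.39 (SE 0.08, edgeR adjusted p = 7.8e-06). All of its FPKM was assigned to NM_008744. Ntn4, a netrin of basement membranes, had 0.47, 0.52 and 0.35 FPKM in LLC alone and 0.41, 0.33 and 0.23 FPKM with BMSCs. The groups overlapped, and the log2 fold change of -0.47 (SE 0.25) did not pass (edgeR adjusted p = 0.137).

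Among the Unc5 receptors, Unc5b, a dependence receptor that triggers cell death when no netrin is bound, had the highest FPKM in every library. It had 31.03, 30.32 and 25.62 FPKM in LLC alone and 29.16, 25.33 and 25.70 FPKM with BMSCs. The groups overlapped, and the log2 fold change was -0.14 (SE 0.09, edgeR adjusted p = 0.227). Without replicate 3 of LLC alone it was called lower, at -0.21 (edgeR adjusted p = 0.0191), and with length and GC trends removed at -0.39 (edgeR adjusted p = 9.27e-06).

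Unc5a had 5.32, 5.04 and 5.10 FPKM in LLC alone and 8.44, 6.50 and 6.58 FPKM with BMSCs. The groups did not overlap, although replicate 1 with BMSCs stood above the rest, and the log2 fold change was 0.45 (SE 0.11, edgeR adjusted p = 0.00733). Unc5a shares exon sequence with Hk3 on the opposite strand, which went from 0.627 to 31.3 normalized counts, while Unc5a had at least 823 normalized counts in every library. Unc5d had 19, 8 and 17 estimated counts in LLC alone and 0 in each library with BMSCs, so it was at least 5.07-fold lower against a floor of 3 counts a library.

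Other genes of these pathways were taken from a list of 68 co-receptors, further ligands, cytoplasmic partners and proteases. The files held 63 of them and 57 passed the filter, with 25 higher, 12 lower and 20 that did not pass, beside the 31.5% and 31.3% of all genes. Changes of at least 2-fold were found in 2 of the 57 in each direction, beside 8.65% higher and 7.17% lower of all tested genes.

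The co-receptors mostly fell or did not pass. Nrp2, which binds Sema3f, was the most abundant of them, with 66.75, 65.03 and 45.34 FPKM in LLC alone and 68.12, 61.39 and 62.28 FPKM with BMSCs. Its groups overlapped, with a log2 fold change of 0.14 (SE 0.13, edgeR adjusted p = 0.38). Nrp1, which binds Sema3a, had 1.52, 1.46 and 1.22 FPKM in LLC alone and 1.02, 0.96 and 0.95 FPKM with BMSCs, a log2 fold change of -0.54 (SE 0.10, edgeR adjusted p = 0.00264). Neo1 (neogenin), a netrin receptor, had 45.44, 47.01 and 35.02 FPKM in LLC alone and 23.04, 22.29 and 22.80 FPKM with BMSCs. It was lower in every library with BMSCs, with a log2 fold change of -0.93 (SE 0.11, edgeR adjusted p = 0.000207), while its ligand Ntn1 rose. Cspg4, a proteoglycan of the cell surface, fell by 2.59 on the log2 scale (SE 0.24, edgeR adjusted p = 6.98e-05).

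Of the 41 cytoplasmic partners tested, 18 were higher, 6 were lower and 17 did not pass, beside 31.5% higher and 31.3% lower over all tested genes. Ngef, an exchange factor that acts below Eph receptors, was the one among them past 2-fold, with 1, 3 and 5 estimated counts in LLC alone and 12, 16 and 18 with BMSCs and a log2 fold change of 2.21 (SE 0.45, edgeR adjusted p = 0.00354). Rock1, a kinase below RhoA, had 7.08, 7.17 and 5.47 FPKM in LLC alone and 11.07, 12.31 and 13.57 FPKM with BMSCs, with a log2 fold change of 0.88 (SE 0.12, edgeR adjusted p = 0.000437). Farp1, an exchange factor that binds plexins, and Abl1, a kinase that acts with Robos, were higher, with log2 fold changes of 0.75 (SE 0.10, edgeR adjusted p = 0.000378) and 0.71 (SE 0.10, edgeR adjusted p = 0.000539). Fyn, a kinase that acts with plexins and Eph receptors, was lower, at -0.74 (SE 0.05, edgeR adjusted p = 1.77e-05). The proteases that cut ephrins and semaphorins, Adam10 and Furin, were both higher, with log2 fold changes of 0.27 (SE 0.09, edgeR adjusted p = 0.0259) and 0.44 (SE 0.08, edgeR adjusted p = 0.00172).

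Of the 7 other ligands and modulators 4 were higher and 2 lower, beside 31.5% and 31.3% of all tested genes. Flrt3, which binds Unc5 and Robo receptors, had 1, 1 and 2 estimated counts in LLC alone and 33, 25 and 33 with BMSCs, and was at least 9.26-fold higher against the floor of 3 counts. Its relative Flrt2 had 8.42, 8.77 and 6.24 FPKM in LLC alone and 12.38, 11.84 and 11.91 FPKM with BMSCs, with a log2 fold change of 0.61 (SE 0.13, edgeR adjusted p = 0.00389). Flrt1 fell by 2.97 on the log2 scale (SE 0.40, edgeR adjusted p = 0.000456) and did not exceed 0.13 FPKM.

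Markers of other cells differed between the groups beside these values. Over all tested genes, 31.5% were called higher and 31.3% lower. All 9 tested markers of BMSCs and fibroblasts, out of 11 listed, were higher with BMSCs. The list summed to 373 to 434 CPM in LLC alone and 868 to 889 CPM with BMSCs, and Thy1 stayed at or under 0.03 FPKM. Single markers of the list rose further than its sum: Col1a1 went from 0.01 to 0.02 FPKM to between 1.85 and 2.24 FPKM, Dcn from 0.10 to 0.13 to between 6.14 and 6.56 FPKM, Ly6a from 2.45 to 4.72 to between 23.94 and 27.62 FPKM, and Lum from 0.03 to 0.04 to between 0.17 and 0.31 FPKM. The markers of highest FPKM in LLC alone rose less. Col3a1 went from 36.77 to 43.62 to between 98.96 and 101.72 FPKM. Prrx1 went from 26.71 to 30.78 to between 45.42 and 47.13 FPKM, and Pdgfra from 4.77 to 6.41 to between 7.82 and 8.32 FPKM. Col1a2 and Lepr rose by a fitted 2.90-fold and 1.61-fold. Cxcl12, not tested, had 0 counts in LLC alone and 12, 7 and 8 with BMSCs, at least 2.75-fold higher. All 5 tested neutrophil markers, out of 8 listed, were higher, with sums of 0.436 to 0.750 and 19.0 to 22.6 CPM. S100a8 and S100a9 made up most of the sum with BMSCs. Ly6g, not tested, had 4, 3 and 1 counts in LLC alone and 3, 1 and 1 with BMSCs. Ltf, also not tested, had 0, 1 and 0 and then 6, 4 and 6. Of 5 tested macrophage markers 4 were higher and 1 was lower, with sums of 9.51 to 11.6 and 13.2 to 13.4 CPM. The endothelial list, whose cells also use Efnb2, Ephb4, Sema3 ligands and Plxnd1, summed to 13.7 to 17.5 and 12.9 to 13.7 CPM. Most of this sum was Egfl7, at 10.05 to 12.88 FPKM, whose groups overlapped. Of 3 tested, Esam was lower and none was higher. Cdh5, Kdr and Tek stayed at or under 0.08 FPKM throughout. Cdh5, not tested, had 2, 1 and 1 counts in LLC alone and 10, 8 and 14 with BMSCs, at least 3.26-fold higher. The pericyte list gave 2 higher and 1 lower, with sums of 35.0 to 46.9 and 48.8 to 54.7 CPM, and the nerve and Schwann cell list gave 1 higher and 1 lower of 5 tested, with sums of 20.5 to 23.4 and 17.7 to 19.1 CPM. No lymphocyte marker was tested, and their sum stayed at or under 0.373 CPM. Ptprc, carried by all leukocytes, rose from 0.01 to 0.05 FPKM to between 0.41 and 0.49 FPKM. The part of these cells in the changes of the ligands and receptors was not tested. Of the epithelial markers, both tested were higher with BMSCs: Krt8 had 90.3 to 101.93 FPKM in LLC alone and 108.0 to 113.28 FPKM with BMSCs (edgeR adjusted p = 0.0374), and Krt18 0.03 to 0.13 and 0.63 to 0.69 FPKM (edgeR adjusted p = 0.000221). Epcam, Krt19 and Cdh1 stayed at or under 0.05 FPKM, so Krt8 was the only abundant marker of this list.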

How the data were processed

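The files hold estimated counts, without normalization and often fractional, and FPKM, both deposited by the authors for genes and for transcripts. The submitters' notes name HISAT, StringTie, Cufflinks, GATK and the build mm8, without roles. The strand setting and the test used for these counts are not given in the sources used here. Estimated counts were rounded, normalized with TMM, filtered with filterByExpr and tested with edgeR 4.0.16 in R 4.3.3 over 6 libraries, with Benjamini-Hochberg adjustment. Normalized counts are CPM scaled to the mean effective library size. Groups were called apart where every library of one lay above every library of the other.

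The members, lists and tests were chosen with earlier results of these data known. The genes named were, in each ligand and receptor system, those past the threshold with a log2 fold change of at least 1 and at least 100 normalized counts on average (at most 8 per direction), the ligand and receptor of highest FPKM, every tested Slit, Robo, netrin and Unc5, and genes at the floor of 3 counts in all libraries of 1 group. The choice of any other gene followed sight of its values.

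A chi-square of the counts in pairs of libraries, per degree of freedom, was 4.79 for LLC alone replicates 1 and 2, 3.03 for LLC with BMSCs replicates 2 and 3, and at least 19.1 for the other pairs. All were above sampling noise, and the libraries were kept separate in the main fit. An alternative fit summed these 2 close pairs. In it 24.3% of all tested genes were called higher and 23.9% lower. At this depth 3 counts are at most 0.0900 CPM, a floor that covers counting error only. On simulated counts with 200 genes changed by 1 on the log2 scale, edgeR recovered 199 with 11 false among 210 calls. The simulated libraries were independent, with the same spread for every gene, and the changed genes were well counted. In the data 62.9% of tested genes passed and some library pairs were close, so these rates need not hold there. Alternatives were DESeq2 1.42.0, other scalings and filters, limma 3.58.1 on log2 FPKM and removal of length and GC trends. A replicate block, the summing of close replicates and leaving out each library were further ones. Promoter sequences are RefSeq's for GRCm38.p6, a build other than that of the notes, and were matched by symbol.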

Additional observations from a re-analysis of the deposited data

How the results depend on the processing

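At a stricter adjusted p of 0.001, 8 members were higher and 4 lower (at least 2-fold lower in 3). At that threshold 2 ligands were lower, 0 receptors were higher and 2 lower. Of the partner genes 7 were higher and 6 lower. The share of all tested genes at 0.001 is not given here, so these counts have no background beside them. The named calls lost were those of Plxna4, Sema3f, Slit2 and Unc5a. With limma on log2(FPKM + 1) or log2(FPKM + 0.1), which left 25 members, 6 were lower; 7 ligands were higher and 4 lower, and 2 receptors were lower. At least 2-fold changes numbered 3 higher and 0 lower with a pseudocount of 1, where any fold is compressed, and 5 and 1 with 0.1. At least 10 counts in every library left 2 members lower by at least 2-fold and 3 receptors lower. Over all tested genes 30.9% were higher and 31.5% lower at that filter. With limma these shares were 32.5% and 31.3% at a pseudocount of 1, and 32.4% and 31.2% at 0.1. Removing the length trend, alone or with the GC trend, gave 10 receptors lower, beside 34.2% and 34.9% of all tested genes. The log2 fold change of Efna1 then turned from -0.06 to 0.14 and 0.15. It was between -0.091 and 0.0096 with single libraries left out, the latter without LLC alone replicate 3. Leaving out single libraries gave 5 to 8 receptors lower and 2 to 4 higher, 12 to 15 members higher and 11 to 15 lower. The 8 came without LLC alone replicate 3. Over all tested genes the shares in these fits were 26.8% to 35.0% higher and 26.5% to 33.5% lower. The largest shares also came without LLC alone replicate 3. Replicates with the same number did not deviate together (correlations of 0.076, -0.106 and 0.057), so the replicate block is not a pairing. Under the block 5 receptors were higher, Plxnb2 at 0.30 and Ephb4 being gained. Over all tested genes 31.2% were higher and 30.4% lower under the block. Over 17 named genes, 287 of 298 alternatives kept direction and call. LLC alone replicate 2 is the shallowest library, and members under about 0.1 FPKM rest on few counts.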
